A study of Homo sapiens with 6 samples.

Results

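The genes of the LSD1-CoREST complex were examined for LSD1, the enzyme of the complex, and for its histone substrates. The members were the distinct intervals of 4 peak lists within 50 kb of 10 genes, namely KDM1A, RCOR1, RCOR2, RCOR3, HDAC1, HDAC2, HMG20B, PHF21A, ZMYM2 and GSE1. The gene positions, on genome build hg19, are known to 1 kb, and the 10 windows covered 1.733 Mb. There were 444 such intervals of 271093 in all. They comprised 70 of the 49597 LSD1 intervals with inhibitor, 81 of the 45188 LSD1 intervals with DMSO, 159 of the 81619 H3K4me2 intervals and 134 of the 94689 H3K4me1 intervals.

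Chromatin immunoprecipitation with sequencing (ChIP-seq) was done on the NCI-H526 line, which came from a human small cell lung carcinoma. The groups were LSD1 after GSK552 (GSK2879552, an LSD1 inhibitor, at 1 µM for 24 h), LSD1 after DMSO, the vehicle, and the histone marks H3K4me2 and H3K4me1, each after DMSO only. Each group was 1 library, so no p-value is given and every difference is one between single peak lists. The 2 inputs were not used here.

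LSD1, encoded by KDM1A, removes methyl groups from mono- and dimethylated lysine 4 of histone H3. Proteins of the CoREST family (RCOR1, RCOR2 and RCOR3) join it to the histone deacetylases HDAC1 and HDAC2 and let it act on nucleosomes. HMG20B (BRAF35), PHF21A (BHC80), ZMYM2 and GSE1 are further subunits, and the complex is best known as a corepressor that transcription factors such as REST bring to chromatin. H3K4me2 is common at active promoters and enhancers, while H3K4me1 is common at enhancers.

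LSD1 lay within 1 kb of the start of all 10 genes after the inhibitor and of 9 of the 10 after DMSO, the exception being HDAC2. At a −log10 q of 2 or more these counts were 9 with inhibitor and 6 with DMSO. That limit cuts the lists unequally, with 24.7% of the whole inhibitor list and 52.0% of the whole DMSO list under it. In the strongest 50% of each list the counts were 8 with inhibitor and 7 with DMSO. No annotation of hg19 was used here, so the share over all gene starts was not computed. H3K4me2 lay within 1 kb of all 10 starts, and H3K4me1 of 3, those of RCOR2, HMG20B and GSE1. Of the intervals in the windows, 11 of 70 LSD1 intervals with inhibitor reached within 1 kb of a start, as did 10 of 81 with DMSO. Of the marks, 27 of 159 H3K4me2 intervals and 4 of 134 H3K4me1 intervals did so. Since a gene start was given only to 1 kb, a distance below that size places an interval at the start and no more.

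Promoters are printed for the first 6 genes in order of role that a RefSeq promoter table (GRCh38.p14) holds, because LSD1 lay at each of their starts in at least 1 list and the sequence shows what these starts share. Each runs 5′ to 3′, from 250 bases before the annotated start to 50 after it, and capitals mark every CG dinucleotide. The peaks are on hg19, so no base of a promoter was matched to a peak.
KDM1A (chr1:23019218-23019517, plus strand): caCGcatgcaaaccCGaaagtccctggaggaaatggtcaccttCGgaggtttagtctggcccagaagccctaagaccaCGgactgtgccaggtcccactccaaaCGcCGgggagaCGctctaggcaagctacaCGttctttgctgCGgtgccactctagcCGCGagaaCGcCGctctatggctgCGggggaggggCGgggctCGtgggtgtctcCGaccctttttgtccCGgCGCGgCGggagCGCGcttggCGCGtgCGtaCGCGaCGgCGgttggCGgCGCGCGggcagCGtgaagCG
RCOR1 (chr14:102592399-102592698, plus strand): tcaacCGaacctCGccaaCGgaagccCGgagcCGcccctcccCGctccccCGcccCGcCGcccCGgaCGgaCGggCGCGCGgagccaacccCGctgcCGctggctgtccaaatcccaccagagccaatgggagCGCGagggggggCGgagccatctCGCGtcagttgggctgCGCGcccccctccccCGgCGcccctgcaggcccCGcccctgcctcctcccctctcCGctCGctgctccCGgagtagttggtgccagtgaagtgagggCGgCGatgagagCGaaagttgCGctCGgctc
RCOR3 (chr1:211259116-211259415, plus strand): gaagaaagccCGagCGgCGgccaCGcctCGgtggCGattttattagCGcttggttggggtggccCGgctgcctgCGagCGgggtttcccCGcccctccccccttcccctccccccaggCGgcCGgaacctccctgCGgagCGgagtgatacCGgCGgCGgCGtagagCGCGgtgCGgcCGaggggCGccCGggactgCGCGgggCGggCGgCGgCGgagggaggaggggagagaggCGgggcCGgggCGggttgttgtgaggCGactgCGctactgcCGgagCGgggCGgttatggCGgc
HDAC1 (chr1:32291833-32292132, plus strand): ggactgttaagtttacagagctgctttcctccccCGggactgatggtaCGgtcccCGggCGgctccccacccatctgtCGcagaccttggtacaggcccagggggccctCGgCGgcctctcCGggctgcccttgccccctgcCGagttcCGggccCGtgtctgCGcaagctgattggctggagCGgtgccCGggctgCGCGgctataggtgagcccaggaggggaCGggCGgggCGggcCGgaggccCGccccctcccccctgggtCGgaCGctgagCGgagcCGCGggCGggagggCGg
HDAC2 (chr6:113971099-113971398, minus strand): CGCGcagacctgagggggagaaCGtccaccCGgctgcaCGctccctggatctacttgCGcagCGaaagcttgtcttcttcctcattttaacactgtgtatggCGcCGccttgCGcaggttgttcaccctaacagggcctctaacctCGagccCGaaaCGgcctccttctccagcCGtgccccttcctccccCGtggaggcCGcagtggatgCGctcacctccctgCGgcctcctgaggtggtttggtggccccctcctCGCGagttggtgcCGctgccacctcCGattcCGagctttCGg
HMG20B (chr19:3572694-3572993, plus strand): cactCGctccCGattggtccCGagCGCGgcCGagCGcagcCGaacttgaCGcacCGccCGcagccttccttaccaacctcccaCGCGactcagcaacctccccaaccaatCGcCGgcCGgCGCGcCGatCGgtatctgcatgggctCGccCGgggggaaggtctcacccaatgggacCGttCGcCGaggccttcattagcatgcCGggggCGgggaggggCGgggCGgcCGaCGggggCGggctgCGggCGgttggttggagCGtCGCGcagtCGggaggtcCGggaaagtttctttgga

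These promoters were rich in CG dinucleotides. The table held 9 of the 10 genes, with 14 promoters, and no promoter was given for RCOR2. The 6 printed hold 36 CG dinucleotides for KDM1A, 35 for RCOR1, 40 for RCOR3, 28 for HDAC1, 24 for HDAC2 and 39 for HMG20B, against a median of 14 over all 35114 promoters of 300 bases. Of the 14 promoters, 12 lay above that median, and the range was 1 to 46, with both ends in PHF21A, which has 3 annotated starts. A search on both strands covered 3 motifs. GGGCGG, the core of the GC box, was in 10 of the 14, against 45.0% of all promoters. CAGGTG, an E-box, was in 2 of 14, against 20.6% of all, and AATCAC, a core of GFI1 sites, was in 1 of 14, against 10.2% of all. GC boxes overlap CG dinucleotides by their letters, and a match describes the sequence and not a bound site.

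All 4 kinds of interval were denser in the windows than over the genome. LSD1 stood at 40.4 intervals per Mb with inhibitor in the windows, against 16 over the whole list, and at 46.7 with DMSO, against 14.6. At a −log10 q of 2 or more the order of the LSD1 lists in the windows turned, with 49 intervals with inhibitor and 26 with DMSO, of 37356 with inhibitor and 21701 with DMSO in the whole lists. H3K4me2 stood at 91.7 per Mb, against 26.4, and H3K4me1 at 77.3, against 30.6. The windows are centred on genes and the genome figure is not, so no excess particular to these genes can be read from it. RefSeq on GRCh38 places ANKRD9 and TRAF3 beside RCOR1, LCK and MARCKSL1 beside HDAC1, and MFSD12 and GIPC3 beside HMG20B. Intervals away from the starts were not assigned to a member or to such a neighbour. GSE1 held 20 of the 70 LSD1 intervals with inhibitor, 19 of the 81 with DMSO, 70 of the 159 H3K4me2 intervals and 42 of the 134 H3K4me1 intervals. RCOR1 held 5 of the 70 LSD1 intervals with inhibitor but 16 of the 81 with DMSO.

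**Figure D1:**
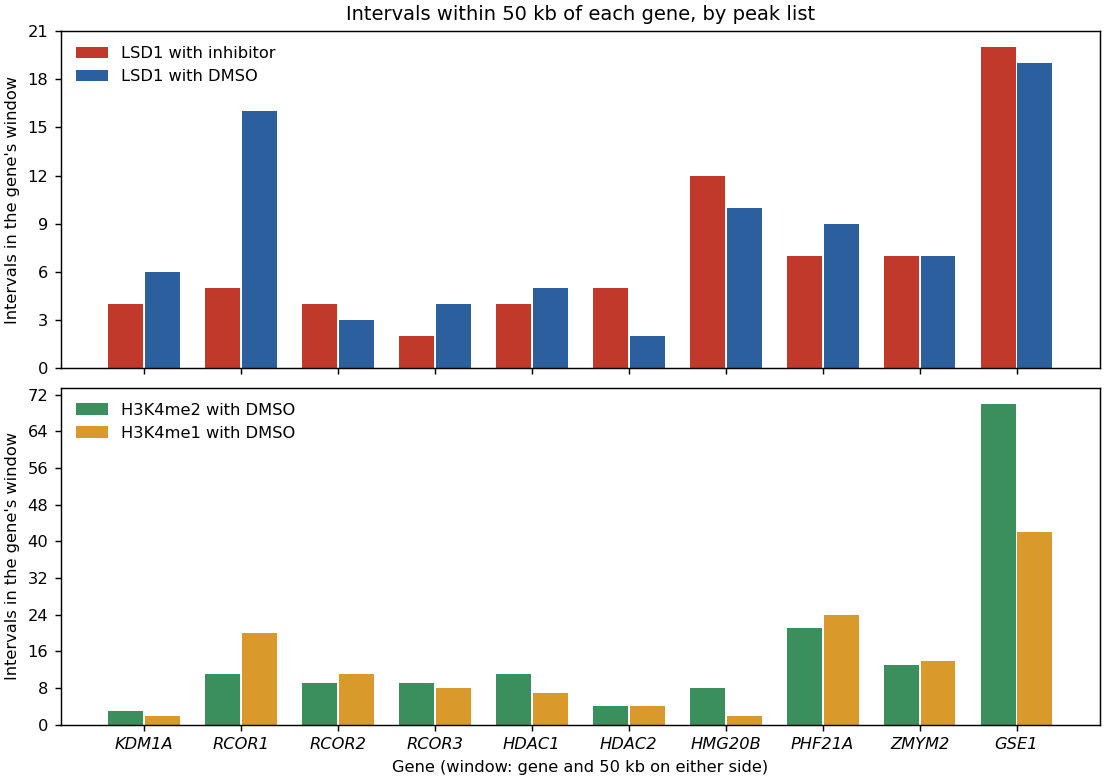
Intervals in the window of each gene, as counts, in the LSD1 lists with inhibitor and with DMSO (top) and in the H3K4me2 and H3K4me1 lists (bottom), 1 library each. GSE1 stands highest in every list, at 20 for LSD1 with inhibitor, 19 for LSD1 with DMSO, 70 for H3K4me2 and 42 for H3K4me1, and RCOR1 shows the widest gap between the LSD1 lists, 5 with inhibitor against 16 with DMSO.

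The deposited strength of a peak is the −log10 of its q-value, which is comparable within a list only. The median LSD1 interval in the windows had a −log10 q of 2.92 with inhibitor, against 2.88 in the whole list, and of 1.66 with DMSO, against 1.95 in the whole list. Intervals under a −log10 q of 2 made up 30.0% of those in the windows with inhibitor, against 24.7% of the whole list, and 67.9% with DMSO, against 52.0%. In all, 5 of the 70 intervals with inhibitor and 1 of the 81 with DMSO ranked in the top 10% of their list.

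**Figure D2:**
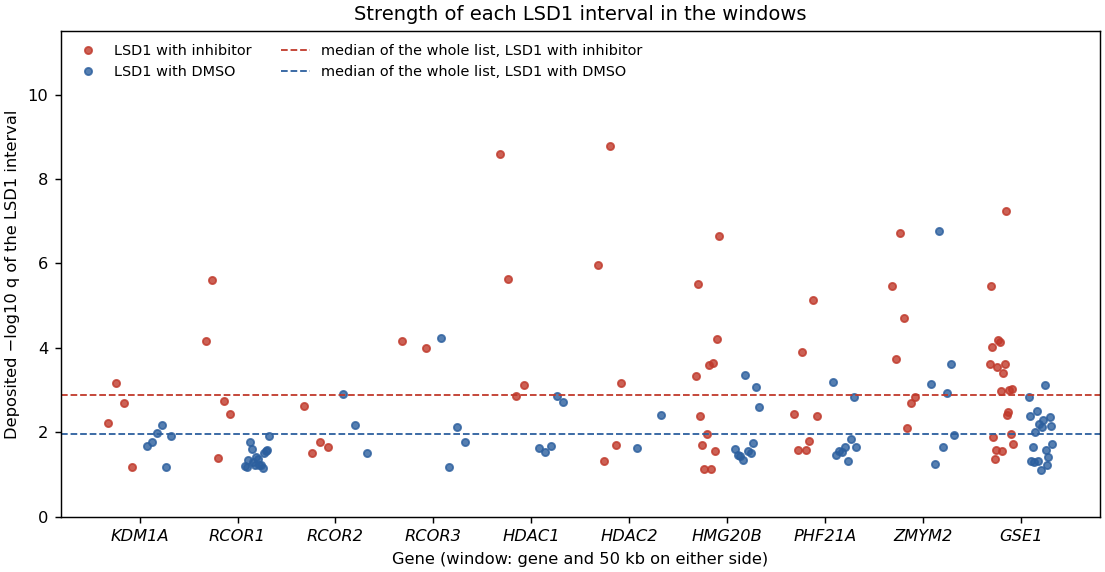
Deposited −log10 q of every LSD1 interval in the windows, 1 point per interval, with inhibitor left of DMSO for each gene; dashed lines are the medians of the whole lists. The highest point with inhibitor is at HDAC2 (8.78) and with DMSO at ZMYM2 (6.77), and every point of RCOR1 with DMSO lies under 2.

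KDM1A, the gene of the demethylase itself, was among the windows with fewer intervals. It held 4 LSD1 intervals with inhibitor, 6 with DMSO, 3 of H3K4me2 and 2 of H3K4me1. At its start LSD1 covered chr1:23345604-23346865 with inhibitor, at a −log10 q of 3.18 and a fold enrichment of 3.90 over the caller's background, and chr1:23345870-23347246 with DMSO, at a −log10 q of 1.97 and a fold of 3.54. Both ranked near the middle of their list, in the top 43.1% with inhibitor and the top 49.1% with DMSO. Both were centred in a stretch of 1060 bp between 2 H3K4me2 intervals, and 16% of the inhibitor interval and 31.4% of the DMSO interval lay on H3K4me2. The strongest DMSO interval of the window was a second one inside the gene, chr1:23348475-23348630, at a −log10 q of 2.17. All 4 inhibitor intervals were overlapped by a DMSO interval, against 58.1% of the whole list. Of the 6 DMSO intervals 4 were overlapped by an inhibitor interval, against 63.2%. The nearest H3K4me1 interval was 5.61 kb from the start, and both of this mark lay upstream of the gene.

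Of the 3 CoREST genes, RCOR1 had the counts that differed most between the LSD1 lists. RCOR1 encodes CoREST1, the scaffold first found with REST. Its window held 5 LSD1 intervals with inhibitor and 16 with DMSO. The inhibitor intervals had 4 at a −log10 q of 2 or more, while the 16 DMSO intervals had none, and 10 of these were under 1.5. The order of the lists at RCOR1 therefore turned with the limit, to 4 with inhibitor against 0 with DMSO. This limit leaves out more of the whole DMSO list than of the whole inhibitor list. By rank, in the strongest 50% of each list, the counts at RCOR1 were 2 with inhibitor and 0 with DMSO. In each list 2 intervals overlapped the other list, against 58.1% of the whole inhibitor list and 63.2% of the whole DMSO list. The 14 in the DMSO list alone had −log10 q values of 1.15 to 1.90. Upstream of the gene lay 2 intervals with inhibitor, against 8 with DMSO. On neither mark lay 2 of the 5 inhibitor intervals, against 37.6% of the whole list, and 11 of the 16 DMSO intervals, against 39.8%.

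At the start of RCOR1 the inhibitor interval, chr14:103058342-103059020, was 679 bp wide with a −log10 q of 5.60 and ranked in the top 14.7% of its list. The DMSO interval, chr14:103058018-103060710, was 2693 bp wide with a −log10 q of 1.36 and ranked in the top 81.7%. Both were centred in a 783 bp stretch between H3K4me2 intervals. H3K4me1 was far from this start, at 37.6 kb, and 17 of its 20 intervals in the window lay inside the gene. The strongest H3K4me2 interval at the start had a −log10 q of 40.0 and a fold of 17.9.

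**Figure D3:**
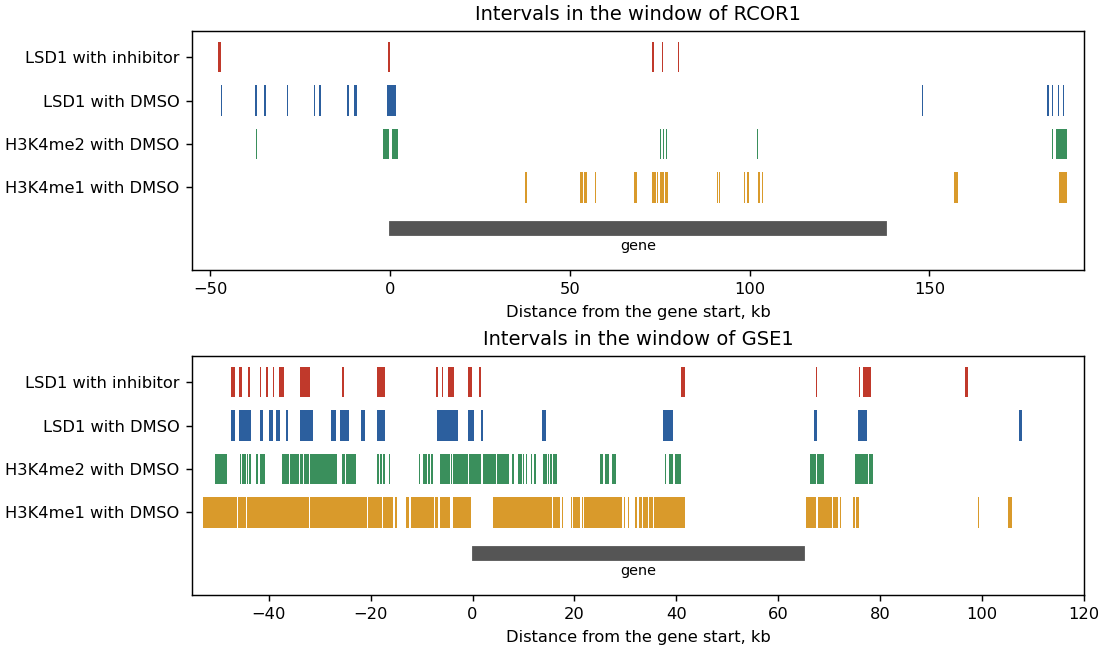
Intervals by distance from the gene start, in kb, in the windows of RCOR1 (top) and GSE1 (bottom), by list; the grey bar is the gene, and narrow intervals are drawn at a minimum width of 0.25 kb. Upstream of RCOR1 lie 2 LSD1 intervals with inhibitor, against 8 with DMSO, and H3K4me1 covers 53.5% of the GSE1 window.

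RCOR2 and RCOR3, the genes of the other CoREST scaffolds, had LSD1 at the start in both lists. RCOR2 held 4 LSD1 intervals with inhibitor and 3 with DMSO, all upstream of the gene, and 9 of H3K4me2 and 11 of H3K4me1. RefSeq on GRCh38 gives RCOR2 a length of 16.5 kb, against 5 kb in the positions used, so its start and what lies upstream depend on these positions. At its start LSD1 covered chr11:63683974-63686013 with inhibitor, at a −log10 q of 2.63 (top 56.7%), and chr11:63684570-63685104 with DMSO, at 2.91 (top 24.0%). This start also had strong marks, with an H3K4me2 interval at a fold of 21.5 (top 1.70% of its list) and an H3K4me1 interval at 11.8 (top 2.43%). Both LSD1 intervals at the RCOR2 start lay on both marks.

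At RCOR3 both lists held nearly the same interval at the start. LSD1 covered chr1:211432210-211432518 with inhibitor, at a −log10 q of 4.15 (top 27.1%), and chr1:211432230-211432547 with DMSO, at 4.22 (top 11%). The inhibitor interval was 309 bp wide and the DMSO interval 318 bp. The window held 2 LSD1 intervals with inhibitor and 4 with DMSO, and apart from the start no interval of one list overlapped the other. Over the whole lists 58.1% of inhibitor and 63.2% of DMSO intervals overlapped the other list. H3K4me2 at the RCOR3 start reached a fold of 21.6, and the nearest H3K4me1 interval lay at 1.60 kb.

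Of the deacetylase genes, HDAC1 had LSD1 at its start in both lists, at chr1:32757239-32758572 with inhibitor (−log10 q 5.63, top 14.5%) and at chr1:32757189-32758276 with DMSO (2.86, top 24.9%). Its window held 4 LSD1 intervals with inhibitor and 5 with DMSO. The strongest LSD1 interval with inhibitor, chr1:32713769-32714564, lay 43.8 kb upstream at a −log10 q of 8.59, in the top 4.93% of its list. It was overlapped by a DMSO interval with a −log10 q of 1.63, in the top 65.3% of its own list. All 4 inhibitor intervals at HDAC1 lay on H3K4me2, against 52.9% of the whole list. Of the 5 DMSO intervals 1 did so, against 50.4%. The DMSO interval chr1:32816237-32816814 ended just short of the H3K4me2 interval chr1:32816826-32818248. The inhibitor interval that overlapped this DMSO interval, chr1:32816565-32817331, reached it. This contrast thus depends in part on the called edges of intervals found in both lists. The window also held the strongest H3K4me2 interval of the 10 windows, at a −log10 q of 62.3 and a fold of 23.4, away from the start. H3K4me1 was 17.9 kb from the HDAC1 start at the nearest.

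HDAC2 was the gene whose start was without a DMSO interval. With inhibitor, chr6:114292373-114293122 lay just upstream of the start at a −log10 q of 8.78 and a fold of 5.39, in the top 4.58% of its list, the highest inhibitor interval in the windows. A second inhibitor interval, at a −log10 q of 1.33, lay within 1 kb on the other side of the start. The nearest DMSO interval was 9.56 kb away, and it overlapped an inhibitor interval there. In this window 2 of the 5 inhibitor intervals overlapped a DMSO interval, against 58.1% of the whole list. Both DMSO intervals overlapped an inhibitor one, against 63.2%. The DMSO list reaches down to a −log10 q of 1.00, so the start held no DMSO peak above that value, which does not show that LSD1 was absent there. H3K4me2 at the HDAC2 start had a fold of 19.6 and a −log10 q of 43.3.

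**Figure D4:**
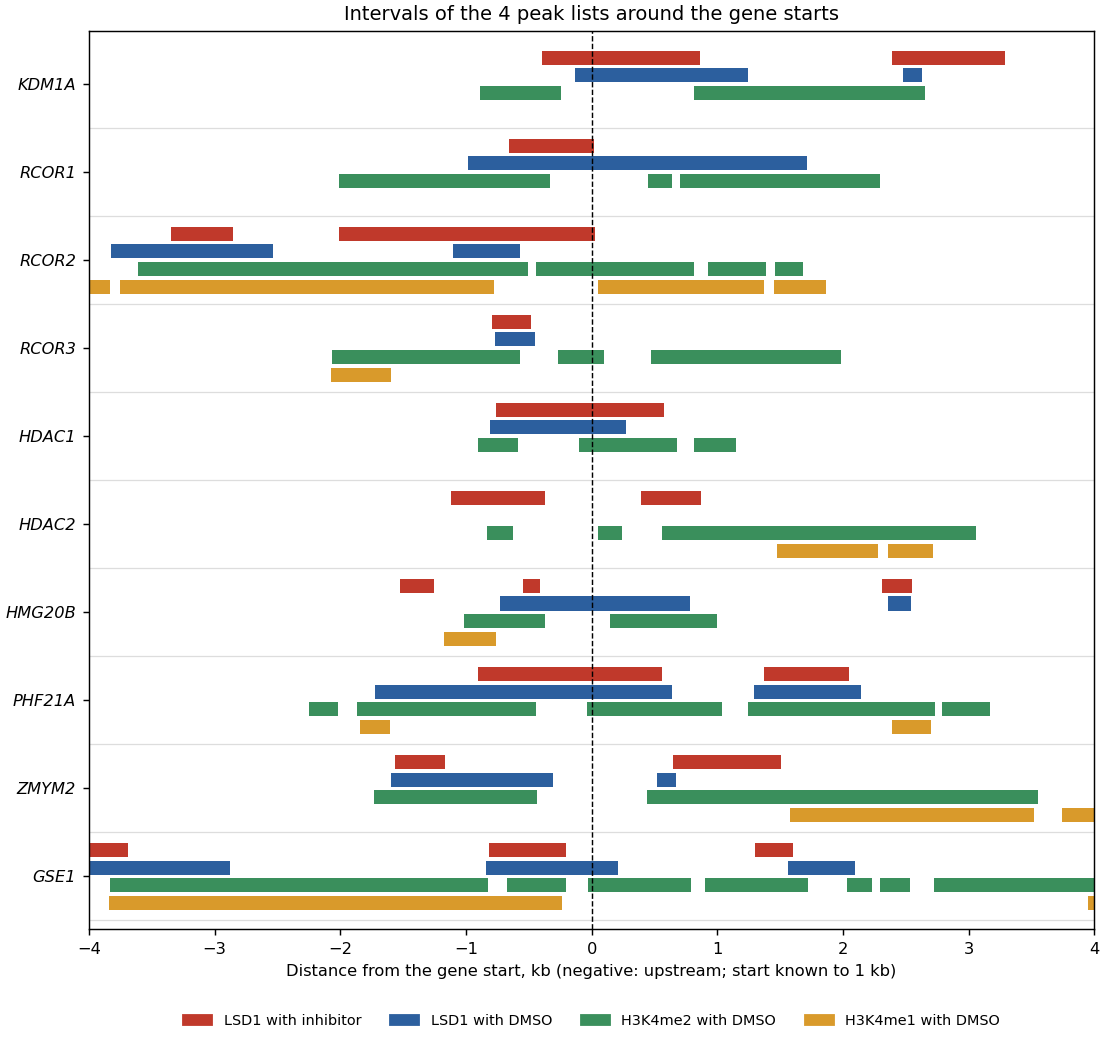
Intervals of the 4 lists within 4 kb of each gene start, by distance in kb, with upstream to the left; in each gene the rows run LSD1 with inhibitor, LSD1 with DMSO, H3K4me2 and H3K4me1. LSD1 with DMSO is missing near the HDAC2 start, and H3K4me1 reaches within 1 kb of 3 starts, those of RCOR2, HMG20B and GSE1.

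HMG20B, the gene of a subunit that binds DNA through an HMG box, had most of its LSD1 intervals away from the marks. Its window held 12 LSD1 intervals with inhibitor and 10 with DMSO, or 113 per Mb with inhibitor and 94.3 with DMSO, and 8 H3K4me2 intervals. On neither mark lay 10 of the 12 inhibitor intervals, against 37.6% of the whole list, and 7 of the 10 DMSO intervals, against 39.8%. None of either lay on H3K4me1, against 39.5% of the whole list with inhibitor and 41.5% with DMSO. This mark had 2 intervals in the window. The start itself had LSD1 from the lower part of each list, with a −log10 q of 1.95 for an inhibitor interval of 139 bp (top 76.9%) and 1.33 for a DMSO interval of 1514 bp (top 83.5%). The strongest inhibitor interval, chr19:3626830-3627606, lay downstream at a −log10 q of 6.65. With DMSO the strongest was chr19:3575356-3575541, inside the gene, at 3.36. Both strongest intervals lay on neither mark and were overlapped by the other LSD1 list.

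PHF21A encodes a subunit that reads unmethylated lysine 4 of histone H3. The 7 LSD1 intervals with inhibitor and the 9 with DMSO in its window had 6 of each overlapped by the other list. Over the whole lists the shares were 58.1% with inhibitor and 63.2% with DMSO. Its start interval covered chr11:46142442-46143905 with inhibitor, at a −log10 q of 5.14 (top 17.7%), and chr11:46142362-46144720 with DMSO, at 2.83 (top 25.5%). The strongest DMSO interval lay downstream, at chr11:45906633-45906840 with 3.18. H3K4me2 and H3K4me1 were frequent, at 21 and 24 intervals, and 12 of each lay downstream of the gene.

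ZMYM2, the gene of a zinc finger subunit, had the strongest DMSO interval of all the windows. It lay inside the gene, 9.75 kb from the start, at chr13:20541792-20543714 with a −log10 q of 6.77 and a fold of 5.57 (top 3.54%). The inhibitor list had nearly the same interval, chr13:20541806-20543708, with a −log10 q of 6.72 and a fold of 5.45 (top 9.48%). Both lay on both marks. The window held 7 LSD1 intervals in each list, of which 6 in each were overlapped by the other. Over the whole lists the shares were 58.1% with inhibitor and 63.2% with DMSO. The strongest interval within 1 kb of the start had a −log10 q of 3.73 with inhibitor, just inside the gene, and of 3.14 with DMSO, just upstream. These did not overlap, but each was overlapped by another interval of the other list. A DMSO interval with a −log10 q of 1.26 lay on the first, and an inhibitor interval with 5.45, just past 1 kb, lay on the second. RefSeq on GRCh38 gives ZMYM2 a length of 225 kb, against 133 kb in the positions used.

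GSE1, the gene of a further subunit, lay in a region dense in all 4 kinds of interval. H3K4me1 covered 53.5% of its window, against 2.19% for the whole list over the genome, and H3K4me2 covered 27.6%, against 1.94%. The widest H3K4me1 interval spanned 11679 bp, and 12 of the 42 were at least 2 kb wide. LSD1 covered 8.16% of the window with inhibitor and 14.7% with DMSO. On H3K4me1 lay 17 of the 20 inhibitor intervals, against 39.5% of the whole list, and 17 of the 19 DMSO intervals, against 41.5%. Upstream of the start lay 14 of the 20 with inhibitor and 13 of the 19 with DMSO. At the start the inhibitor interval, chr16:85644183-85644799, had a −log10 q of 7.24 (top 7.83%) and the DMSO interval, chr16:85644160-85645211, had 3.13 (top 20.6%). The H3K4me1 interval there had a fold of 22.9 and ranked in the top 0.372% of its list. RefSeq on GRCh38 gives GSE1 a length of 507 kb, against 65 kb in the positions used, and the dense stretch upstream was not assigned to GSE1 or to a neighbour.

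Over the 10 starts, the strongest LSD1 interval had a −log10 q of 1.95 to 8.78 with inhibitor (median 4.64) and, over the 9 starts with one, 1.33 to 4.22 with DMSO (median 2.86). As a rank in its own list the median was the top 22.4% with inhibitor and the top 24.9% with DMSO. The strongest intervals of the 2 lists overlapped at 8 of the 9 starts, ZMYM2 being the exception by the choice of the strongest within 1 kb, and the DMSO interval was the wider at 7 of the 9. Over the whole lists the median width was 388 bp with inhibitor and 471 bp with DMSO. The strongest intervals at the starts, 10 with inhibitor and 9 with DMSO, all touched H3K4me2. Over the whole lists 52.9% of inhibitor and 50.4% of DMSO intervals did so. At the starts, 3 of the 10 inhibitor intervals were centred in a gap of up to 2 kb between neighbouring H3K4me2 intervals (KDM1A, RCOR1 and PHF21A), and so were 4 of the 9 DMSO intervals (KDM1A, RCOR1, HDAC1 and HMG20B). Over all intervals of the windows the share centred in such a gap was 7 of 70 with inhibitor, or 10.0%, against 10.9% of the whole list, and 8 of 81 with DMSO, or 9.88%, against 7.83%. Both shares were near those of the whole lists. The gap measure was chosen after the data were seen.

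Across the windows, LSD1 intervals with inhibitor were overlapped by DMSO intervals in 50 of 70 cases, or 71.4% (95% Wilson interval 59.9% to 80.7%, counting error only), against 58.1% of the whole list. Without GSE1 the inhibitor share was 68.0%, 34 of 50 (54.2% to 79.2%), an interval that includes 58.1%. In the other direction, 46 of 81 DMSO intervals were overlapped, or 56.8% (45.9% to 67.0%), against 63.2%. Without RCOR1 this second share was 67.7%, 44 of 65 (55.6% to 77.8%), so RCOR1 alone moved it to the other side of the whole list's share. Both intervals include 63.2%. The order of the shares in the windows turned with the strength of the peaks. At a −log10 q of 2 or more, 53.1% of inhibitor intervals were overlapped, against 43.3% of the whole list, and 92.3% of DMSO intervals, against 73.4%. In the strongest 50% of each list they were 65.7% of inhibitor intervals, against 54.0% of the whole list, and 75.0% of DMSO intervals, against 58.9%. Where each interval had to cover at least 50% of the other, the inhibitor share was 25.7%, below the 30.4% of the whole list. Intervals in both lists had a median −log10 q of 3.47 with inhibitor and 2.16 with DMSO. The 20 in the inhibitor list alone had a median of 1.71, and the 35 in the DMSO list alone 1.54, with a highest value of 2.12. Neither mark was present at 10 of the 20 inhibitor-only intervals, against 49.9% of such intervals in the whole list, and at 23 of the 35 DMSO-only intervals, against 59.6%. Over all intervals of the windows it was 19 of 70 with inhibitor, or 27.1% (18.1% to 38.5%), and 34 of 81 with DMSO, or 42.0% (31.8% to 52.8%). Both intervals include the share of the whole list, 37.6% with inhibitor and 39.8% with DMSO. For DMSO this depended on GSE1, where 1 of 19 lay on neither mark. Without GSE1 the DMSO share was 53.2%, 33 of 62 (40.98% to 65.09%), an interval that starts just above 39.8%. RCOR1 held 11 of these 33. With GSE1 kept and RCOR1 left out, the DMSO share was 35.4% (24.9% to 47.5%). GSE1 was left out after the data were seen and neighbouring intervals are not independent, so no difference from the whole list is read from this. With inhibitor the share without GSE1 was 18 of 50 (24.1% to 49.9%), which still includes 37.6%.

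The share of LSD1 on H3K4me2 was 60.0% with inhibitor (42 of 70, 48.3% to 70.7%), against 52.9% of the whole list, and 50.6% with DMSO (41 of 81, 40.0% to 61.2%), against 50.4%. On H3K4me1 the share was 42.9% with inhibitor (30 of 70, 31.9% to 54.5%), against 39.5%, and 33.3% with DMSO (27 of 81, 24.0% to 44.1%), against 41.5%. With GSE1 included, all 4 intervals include the share of the whole list. The distance from the whole list changed with the strength of the peaks. In the strongest 50% of each list the share on H3K4me2 was 60.0% with inhibitor, against 42.2%, and 71.4% with DMSO, against 42.7%. GSE1 carried much of the H3K4me1 overlap, and without it the shares on H3K4me1 were 26.0% with inhibitor and 16.1% with DMSO. The DMSO interval without GSE1 reached up to 27.2% and did not include 41.5%. The inhibitor interval without GSE1 reached up to 39.6% and still included 39.5%. GSE1 was left out after the data were seen. It held 17 of the 27 DMSO intervals on H3K4me1, so leaving it out had to lower the share. No such dense region was left out of the whole list, so no depletion is read from this.

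Of the H3K4me2 intervals, 115 of 159, or 72.3% (64.9% to 78.7%), lay on H3K4me1, against 63.1% of the whole list. Without GSE1, where the count was 64 of 70, the share was 57.3% (46.9% to 67.1%), on the other side of the whole list's. That interval includes 63.1%. LSD1 overlapped 56 of the 159 H3K4me2 intervals with inhibitor, or 35.2% (28.2% to 42.9%), against 40.8%, and 62 with DMSO, or 39.0% (31.8% to 46.7%), against 35.4%. Neighbouring intervals are not independent, so these Wilson intervals understate the error.

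**Figure D5:**
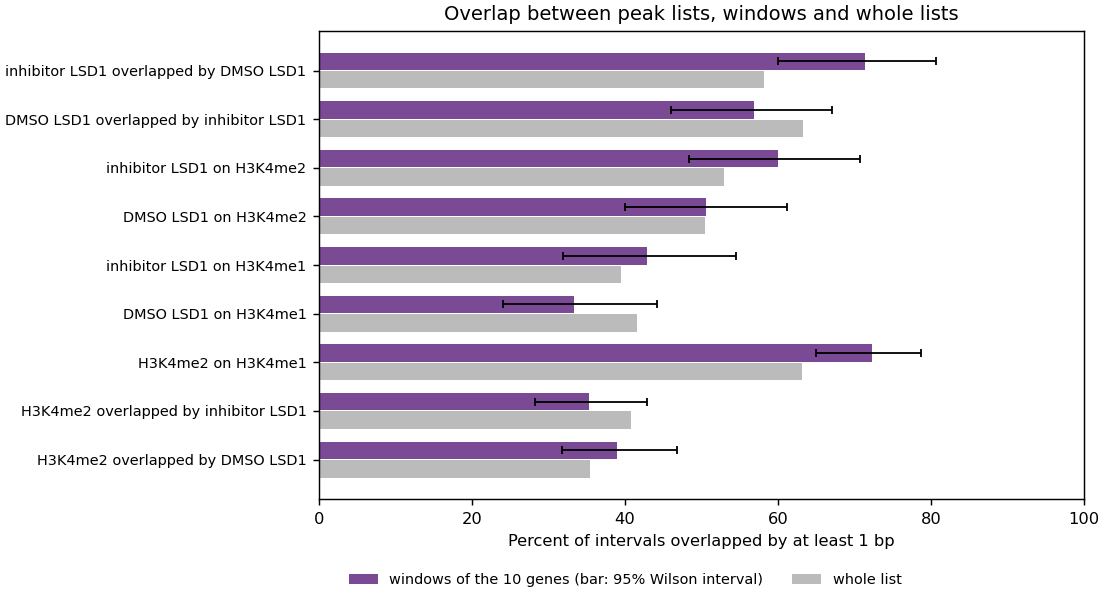
Percent of intervals overlapped by at least 1 bp of the other list, in the windows (purple, with 95% Wilson intervals for counting error) above the whole list (grey). The share of inhibitor LSD1 overlapped by DMSO LSD1 is 71.4% in the windows, against 58.1%, and 72.3% against 63.1% for H3K4me2 on H3K4me1. For the other 7 shares the whole list lies inside the interval of the windows. GSE1 is included, and without it the first 2 shares are 68.0% and 57.3%, and DMSO LSD1 on H3K4me1 is 16.1%. The interval of that last share then lies below the 41.5% of the whole list. GSE1 was left out after the data were seen and was rich in H3K4me1, so this share had to fall.

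A further 5 genes of the pathway were set beside them, the paralog KDM1B and the partners ZMYM3, CTBP1, ZNF217 and REST. LSD1 was within 1 kb of the start of 3 of the 5 with inhibitor and of the same 3 with DMSO, those of ZMYM3, REST and KDM1B. CTBP1 had its nearest at 28.8 kb with inhibitor and at 1.10 kb with DMSO, and ZNF217 at 10.6 kb with inhibitor and at 36.1 kb with DMSO. H3K4me2 was at 4 of the 5 starts and H3K4me1 at 1, that of CTBP1. KDM1B had 8 LSD1 intervals with inhibitor, 6 with DMSO, 9 of H3K4me2 and 8 of H3K4me1 in its window. ZMYM3, a relative of ZMYM2, had 1 LSD1 interval in each list, 7 of H3K4me2 and 1 of H3K4me1.

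H3K4me2 was also counted at POU2F3, NEUROD1 and YAP1, which are used in naming subtypes of small cell lung cancer. The POU2F3 window held 19 H3K4me2 intervals, that of NEUROD1 held 5 and that of YAP1 held 7, with H3K4me2 at all 3 starts. The positions used span 84 kb for POU2F3, 4 kb for NEUROD1 and 123 kb for YAP1, so the windows differ in size. POU2F3 held the most of the 3, in a smaller window than that of YAP1. The mark stood at every start, and no subtype was assigned from these counts. To look for extra gene copies, a background was computed for each interval from its fold and p-value, relative to the median of its list. The medians of the 10 windows were 0.832 to 1.90 with inhibitor, 0.880 to 1.18 with DMSO, and for the marks 0.686 to 1.29 (H3K4me2) and 0.818 to 1.33 (H3K4me1), with ZMYM2 the highest in both LSD1 lists. At MYCN, which is known to be amplified in this line, the median was 17.8 for LSD1 with inhibitor, 15.3 for LSD1 with DMSO, 20.8 for H3K4me2 and 21.0 for H3K4me1. In the windows this background could be computed for 58 of the 70 LSD1 intervals with inhibitor and 77 of the 81 with DMSO.

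The members just inside and just outside the 50 kb limit are given for RCOR1, GSE1 and ZMYM2. At RCOR1, the farthest inhibitor interval inside it lay 46.9 kb from the gene at a −log10 q of 4.15, and the next one outside lay at 51.4 kb with 3.00. With DMSO these were 49.3 kb with 1.90 and 51.0 kb with 1.60. At GSE1 they were 46.6 kb with 3.62 and 52.1 kb with 1.60 with inhibitor, and 46.6 kb with 2.84 and 51.7 kb with 1.2 with DMSO. At ZMYM2 the next intervals outside the limit lay farther off, at 67.8 kb with inhibitor and 67.4 kb with DMSO.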

How the data were processed

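ChIP-seq peak lists of 4 of the 6 samples were used, each from 1 library. Per the submitters' processing notes, BWA, Picard, MACS2 2.0 and build hg19 were used; the sources used here do not give their settings, the control, the handling of duplicates or the depth. All 6 samples carry the same treatment label, taken here to describe the GSK552 libraries. The deposited score of a peak is 10 times its −log10 q, the deposited fold is a ratio over the caller's background, and each peak's −log10 q and −log10 p come from the authors. LSD1 lists have the broad-peak layout and reach to a −log10 q of 1.01 with inhibitor and 1.00 with DMSO. Histone lists have the narrow layout and reach to 2.02 for H3K4me2 and 2.01 for H3K4me1, so the calling of each list bears on widths and on overlaps with the other kind. The 178083 H3K4me2 and 175135 H3K4me1 deposited rows were reduced to distinct intervals.

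Sharing 1 bp or more with the other list made an interval overlapped. A start counted as having an interval within 1 kb. The implied background is that at which the fold, with a pseudocount of 1, and the Poisson p-value agree. Simulated data were used to test the overlap search. Python 3.11.15, pandas 2.3.3, scipy 1.17.1 and statsmodels 0.14.6 were used. The genes and lists were chosen with earlier results of these data known. All 10 genes were named, with the strongest interval at each start and the strongest LSD1 interval of each window; other intervals named in the text were chosen after their values were seen. Positions of the 5 other pathway genes and the 3 subtype genes given are from general knowledge of hg19, and 2 of them (ZNF217 and NEUROD1) span less than the GRCh38 gene. Other genes of these lists are not reported here. Alternatives were the strongest 50% of each list, LSD1 lists of equal length, a −log10 q of at least 2, a reciprocal overlap of 50%, centres, windows of 10 and 100 kb, and 5 kb from the start.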

Additional observations from a re-analysis of the deposited data

How the results depend on the processing

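With LSD1 lists of equal length all 10 recomputed results stayed within the limits set for a change (1.5 times for a count, the Wilson interval for a share). With the strongest 50% of each list the counts of LSD1 intervals were 35 with inhibitor and 28 with DMSO. The DMSO shares were then 75.0% overlapped by inhibitor (whole list 58.9%), 71.4% on H3K4me2 (42.7%) and 50% on H3K4me1 (39.0%). H3K4me2 on H3K4me1 was 59.6% (47.2%). The inhibitor shares stayed within the limits set, at 65.7% overlapped by DMSO (54.0%), 60.0% on H3K4me2 (42.2%) and 42.9% on H3K4me1 (34.4%). These limits compare a share in the windows with its main value only. At the main setting the whole-list share of inhibitor intervals on H3K4me2 was 52.9%. At a −log10 q of 2 or more the counts were 49 with inhibitor and 26 with DMSO, which turned their order. The share of inhibitor overlapped by DMSO was 53.1% (43.3%) and that of DMSO overlapped by inhibitor 92.3% (73.4%). DMSO lay on H3K4me2 in 73.1% (56.7%) and on H3K4me1 in 57.7% (49.4%). Inhibitor lay on H3K4me2 in 65.3% (54.4%) and on H3K4me1 in 44.9% (40.9%). LSD1 was at 8 starts with inhibitor and 7 with DMSO in the strongest 50%, and at 9 with inhibitor and 6 with DMSO at that limit.

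A reciprocal overlap of 50% gave 25.7% of inhibitor (30.4%) and 22.2% of DMSO intervals (33.3%) overlapped by the other list, 15.7% of inhibitor (13.5%) and 16% of DMSO intervals (14.2%) on H3K4me2, 4.29% of inhibitor (6.36%) and 7.41% of DMSO intervals (8.23%) on H3K4me1, and 12.6% of H3K4me2 (15.2%) on H3K4me1. Centres gave 52.9% of inhibitor (46.5%) and 33.3% of DMSO intervals (47.2%) overlapped by the other list, and 47.1% of inhibitor (36.8%) and 39.5% of DMSO intervals (36.4%) on H3K4me2. Values in parentheses are whole-list shares at the same setting. Windows of 10 kb held 36 LSD1 intervals with inhibitor and 35 with DMSO, with 68.6% of DMSO overlapped by inhibitor (63.2%) and 62.9% on H3K4me2 (50.4%). Windows of 100 kb held 113 with inhibitor.

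Chosen after the data were seen, leaving out GSE1 gave 26.0% of inhibitor and 16.1% of DMSO intervals on H3K4me1 and 57.3% of H3K4me2 on H3K4me1, and leaving out RCOR1 gave 67.7% of DMSO intervals overlapped by inhibitor. Apart from the settings that change the list or the genes by construction, the cause of these changes was not tested. Depth is unknown, so an interval missing from a list does not show absence of LSD1. No paired analysis was possible because replicates are lacking, with 1 library for each group.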
